A study of Mus musculus with 2 samples.

Results

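The Th2 genes described here are Gata3, Stat6, Nfatc1, Il4ra, Il4, Il5 and Il13, chosen by gene symbol in the platform annotation. They are 7 of 12393 genes with a probe set of 1 gene symbol, and 11 of 20380 such probe sets. RNA of splenic CD4+ T cells was measured on 2 oligonucleotide arrays, 1 for DBA/1 mice, which are susceptible to arthritis induced by glucose-6-phosphate isomerase (GPI), and 1 for C57BL/6 mice, which resist it. Mice of both strains had been immunised with GPI and were sampled on day 7, so no unimmunised sample enters the comparison. The cells were magnetically sorted, and the sources used here do not say how many mice each RNA sample came from.

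T helper 2 (Th2) cells are CD4+ T cells that secrete the cytokines IL-4, IL-5 and IL-13 and help antibody and allergic responses. IL-4 binds a receptor that contains the alpha chain Il4ra, Janus kinases then phosphorylate the transcription factor Stat6, and Stat6 induces Gata3, the factor that opens the Th2 cytokine locus. T cell receptor signals act beside this route through calcineurin, which sends NFAT factors such as Nfatc1 to the nucleus.

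The regulators and the receptor chain gave nearly equal signals in the strains, and the cytokines were close to or under the background level. Gata3, Stat6, Nfatc1 and Il4ra were within 1.15-fold of equality in the probe set with the highest signal of each gene. Il4 was 1.28-fold higher in DBA/1, near background on both arrays. Il5 and Il13 were under the floor on both arrays. None of the 5 measurable genes reached 1.5-fold.

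The 3 cytokine genes are neighbours on mouse chromosome 11, in the order Kif3a, Il4, Il13, Rad50, Il5 and Irf1 with a pseudogene and a microRNA gene between them. The 250 bases before their starts are shown because these genes are targets of the regulators measured here and gave signals near or under the background level. Capitals mark the NFAT core GGAAA on either strand (TTTCC on the other). The sequences are from RefSeq, build GRCm38.p6, a C57BL/6J genome, and any difference in DBA/1 was not read. They lie at chr11:53618666-53618915 (minus strand) for Il4, chr11:53634703-53634952 (minus strand) for Il13 and chr11:53720544-53720793 (plus strand) for Il5.
Il4: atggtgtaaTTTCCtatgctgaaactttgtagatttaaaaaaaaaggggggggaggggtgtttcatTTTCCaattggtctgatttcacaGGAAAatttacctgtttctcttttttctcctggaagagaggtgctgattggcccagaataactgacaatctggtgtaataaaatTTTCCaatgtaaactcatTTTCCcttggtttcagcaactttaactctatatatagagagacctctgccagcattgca
Il13: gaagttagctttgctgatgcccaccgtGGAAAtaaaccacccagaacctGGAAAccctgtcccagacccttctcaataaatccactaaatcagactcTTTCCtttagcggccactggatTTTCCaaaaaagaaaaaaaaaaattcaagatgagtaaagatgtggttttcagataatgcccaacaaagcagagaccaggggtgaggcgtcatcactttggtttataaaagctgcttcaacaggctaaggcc
Il5: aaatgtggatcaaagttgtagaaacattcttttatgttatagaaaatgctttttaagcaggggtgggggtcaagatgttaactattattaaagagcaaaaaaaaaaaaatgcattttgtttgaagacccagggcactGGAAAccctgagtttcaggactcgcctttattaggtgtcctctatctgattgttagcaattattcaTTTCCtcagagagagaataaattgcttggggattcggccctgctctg

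The Il4 window held 5 NFAT cores, the Il13 window 4 and the Il5 window 2. Among 32851 mouse promoter windows of the same length, 55.6% held at least 1 such core, 21.4% at least 2, 1.59% at least 4 and 0.39% at least 5. The letters GATA, searched on both strands, occurred once each before Il13 and Il5 and were not in the Il4 window shown, against 53.6% of all windows. The spaced pair TTCNNNNGAA, the arrangement STAT6 prefers, occurred in the Il4 window only among those shown, overlapping 1 of its NFAT cores, and 5.85% of all windows held it. The AP-1 letters TGANTCA, present in 6.75% of all windows, were in none of the 3. The table also lists another Il4 start, inside the gene, whose window at chr11:53617339-53617588 held 3 GATA matches and no NFAT core. The listed windows of Gata3, Il4ra and Stat6 held 2, 1 and 1 NFAT cores and no TTCNNNNGAA. A match is a description of letters and not evidence of binding.

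The deposited values are MAS5 signals, which summarise the probes of a probe set as an intensity on a linear scale. Ratios are log2 of the DBA/1 over the C57BL/6 signal, and each array's median signal (37.6 in DBA/1 and 38.04 in C57BL/6) was used as a floor, to which lower signals were set. As each strain has 1 array, no test was possible and no replicate error is known. Probes give the only repeat measurement: for 2325 genes with 2 probe sets over the floor in both strains, the log2 ratios of a pair differed with an SD of 0.43, or 0.31 per probe set. That error covers probes only, not mice, sorts or labelling. Whether a DBA/1 sequence variant lies under a probe, which would alter the ratio of that probe set, was not tested for any gene. Signals of different probe sets depend on the probes and are not compared between genes.

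Gata3, the master transcription factor of the Th2 programme, has 1 probe set (1448886_at). It read 157 in DBA/1 and 181 in C57BL/6, a log2 ratio of -0.20 (1.15-fold lower in DBA/1). The difference is smaller than the probe error of 0.31. In the 5 alternative settings that could change its value it lay between -0.28 and -0.13.

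Stat6, the transcription factor activated by the IL-4 receptor, has 2 probe sets. Probe set 1426353_at read 615 in DBA/1 and 545 in C57BL/6, a log2 ratio of 0.18. Probe set 1421708_a_at read 266 in DBA/1 and 255 in C57BL/6, a log2 ratio of 0.06. Both readings were slightly higher in DBA/1 as deposited and within the probe error; after median centring they lay at 0.09 and -0.02, so the direction of 1421708_a_at was lost.

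Nfatc1, an NFAT factor induced and activated after T cell receptor stimulation, read 292 in DBA/1 and 305 in C57BL/6 with probe set 1417621_at, a log2 ratio of -0.06. Probe set 1425761_a_at read 128 in DBA/1 and 126 in C57BL/6, a log2 ratio of 0.03. The pair pointed in opposite directions and differed by 0.096 on the log2 scale, within the probe error.

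Il4ra encodes the receptor chain shared by IL-4 and IL-13. Probe set 1421034_a_at read 256 in DBA/1 and 234 in C57BL/6, a log2 ratio of 0.13. Probe set 1423996_a_at read 143 in DBA/1 and 109.9 in C57BL/6, a log2 ratio of 0.38 (1.30-fold higher in DBA/1). Their ratios differed by 0.25, within the SD of 0.43 between pairs. Both were higher in DBA/1 as deposited and under each scaling tried, with the first at 0.04 after quantile normalization. The remaining probe set, 1447858_x_at, read 7.84 in DBA/1 and 2.23 in C57BL/6, under the floor on both arrays, and gives no fold.

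Il4, the defining Th2 cytokine, read 61.4 in DBA/1 and 48.1 in C57BL/6 with its only probe set (1449864_at), a log2 ratio of 0.35. This is close to the probe error of 0.31, which is pooled over all signal levels above the floor. That error was not estimated separately for signals as low as these, which lay at the 57.1 and 53.3 percentile of their arrays. With the floor at percentile 60 both signals were under it and no ratio could be given; in the 5 alternatives that gave another value the ratio lay between 0.22 and 0.42.

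Il13, which acts through Il4ra on epithelium and macrophages, read 2.80 in DBA/1 and 2.17 in C57BL/6 (probe set 1420802_at). Il5, the growth factor of eosinophils, read 0.419 in DBA/1 and 0.778 in C57BL/6 (probe set 1450550_at). Both genes were far under the floor in both strains, so their transcripts were not detectable over background on these arrays, which does not show that they were absent.

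**Figure D1:**
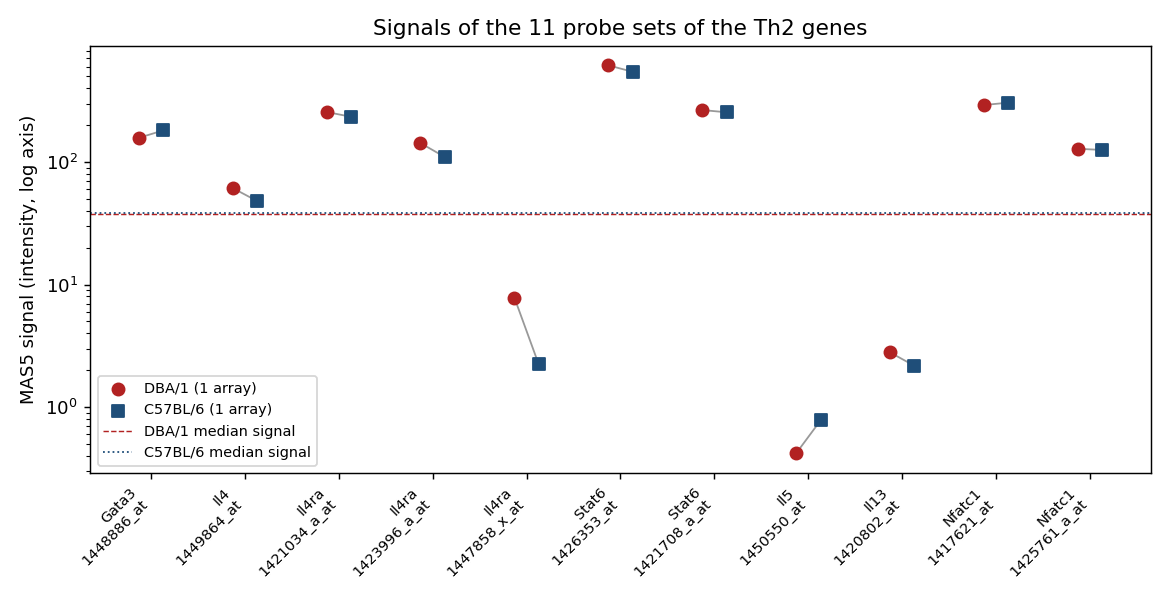
MAS5 signal (log axis) of each of the 11 probe sets of the Th2 genes, with DBA/1 as circles and C57BL/6 as squares, 1 array each, and the median signal of each array as a dashed or dotted line. Stat6, Nfatc1, Gata3 and 2 Il4ra probe sets lie well over the lines with nearly level pairs, Il4 just over them, and Il5, Il13 and the remaining Il4ra probe set under them.

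**Figure D2:**
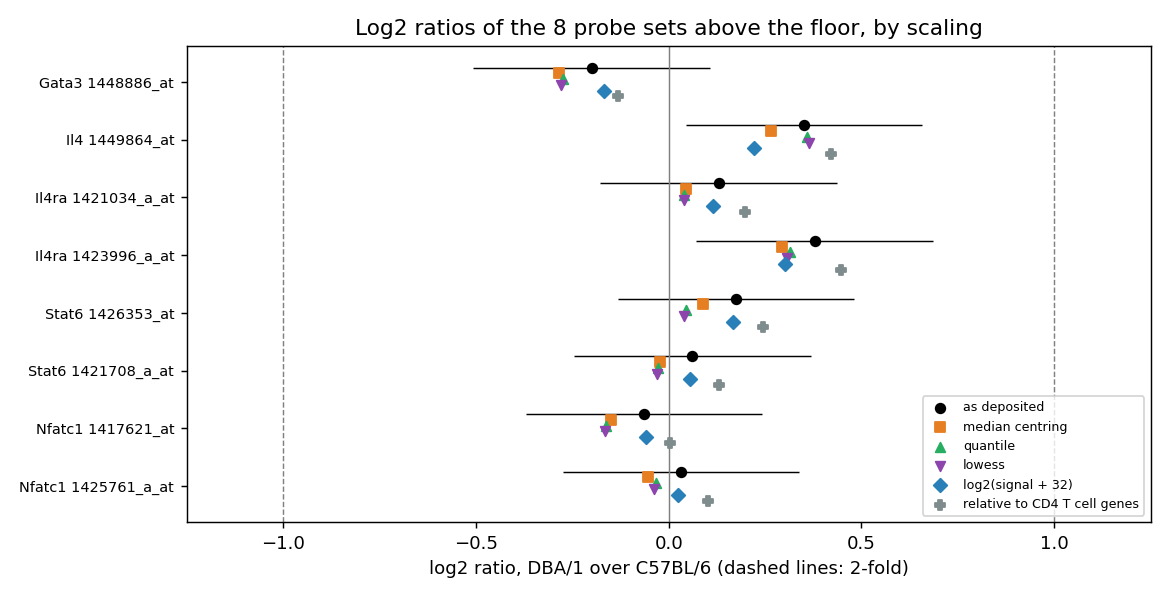
Log2 ratio of DBA/1 over C57BL/6 for the 8 probe sets over the floor in both strains, as deposited (black, with the probe error of 0.31 as a bar) and under 5 other scalings. All points lie inside the dashed 2-fold lines, and those of Nfatc1 and of Stat6 probe set 1421708_a_at fall on both sides of 0.

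Of the 5 Th2 genes above the floor, 3 were higher in DBA/1 and 2 lower, none by 2-fold. Their median log2 ratio was 0.13, beside 0.10 over all 6936 genes above the floor on at least 1 array. Over those 6936 genes, 5.74% were at least 2-fold apart, 3.84% higher and 1.9% lower in DBA/1, and 17.8% were at least 1.5-fold apart, 11.8% higher and 5.97% lower. A count of 0 out of 5 is near this background and is not a result about the Th2 genes. The middle part of all genes, from the 25th to the 75th percentile, spanned log2 ratios of -0.15 to 0.36; Gata3 lay below it and the other 4 genes inside it.

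**Figure D3:**
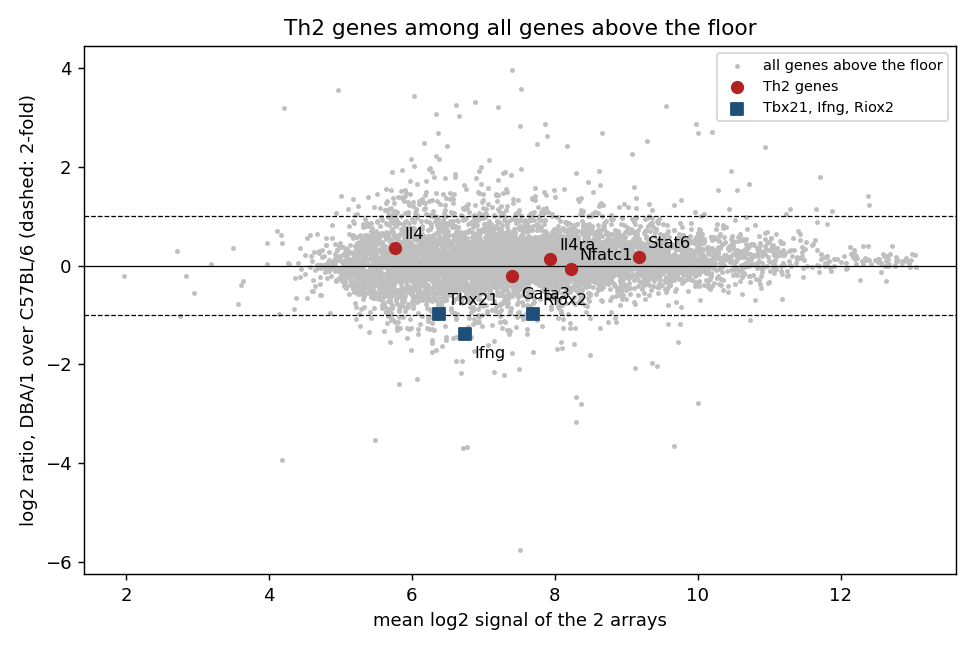
Log2 ratio of DBA/1 over C57BL/6 against the mean log2 signal for 6936 genes (grey), with the 5 Th2 genes above the floor as red circles and Tbx21, Ifng and Riox2 as blue squares. The Th2 genes lie between -0.20 and 0.35, inside the dense band, and Tbx21, Ifng and Riox2 between -0.98 and -1.39.

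Of 4 Th1 counterparts, Tbx21 and Ifng had larger log2 ratios in size than Gata3 and Il4, and Stat4 and Ifngr1 smaller ones than Stat6 and Il4ra. Tbx21 (T-bet), the Th1 master factor that opposes Gata3, read 59.2 in DBA/1 and 117 in C57BL/6. Ifng, the main Th1 cytokine, read 66.0 in DBA/1 and 173 in C57BL/6. The log2 ratio of Gata3 exceeded that of Tbx21 by 0.78, and that of Il4 exceeded that of Ifng by 1.74. The pairs were chosen after the values were seen, and with 1 array per strain these differences between genes carry no test. Among the signalling genes, the log2 ratio of Stat6 exceeded that of Stat4, the Th1 counterpart downstream of IL-12, by 0.13. That of Il4ra exceeded that of Ifngr1, a chain of the interferon gamma receptor, by 0.14. These last 2 differences are smaller than the SD of 0.43 between 2 probe sets of 1 gene. Over 9 genes of the Th1 list the median log2 ratio was -0.34. Ifng was at least 2-fold lower in DBA/1 and none was at least 2-fold higher, beside 1.9% and 3.84% of all genes. With the floor at percentile 25 or 60 that median was -0.015, and in 6 of 10 alternatives 2 Th1 genes were at least 2-fold apart. Its other leading members were Il18r1, the IL-18 receptor, at 0.95 and the chemokine receptor Cxcr3 at -0.74. CD8 T cell markers, all 6 of them lower in DBA/1 with a median of -1.16, stood beside the Th1 difference, and their part in it was not tested.

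Of the other genes of the Th2 cytokine locus, Rad50 and Irf1 were close to equality, and Kif3a gave only a bound. Of 13 listed cytokine and locus genes 11 had a probe set, and 7 of these, Il3, Csf2, Il9, Il10, Il24, Il5 and Il13, were under the floor on both arrays; the first 5 of these were named after their values were seen. Of the 4 above the floor, none was 2-fold apart, beside 5.74% of all genes. Their median log2 ratio of 0.28 turned to -0.07 with the floor at percentile 25. Rad50, the DNA repair gene whose introns hold the locus control region in mice, read 154 in DBA/1 and 129 in C57BL/6, a log2 ratio of 0.25. Kif3a, a motor protein gene flanking Il4, was at least 1.23-fold higher in DBA/1, with its C57BL/6 signal under the floor. Irf1, an interferon-induced factor at the other end, read 659 in DBA/1 and 749 in C57BL/6, a log2 ratio of -0.18.

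Of 19 listed receptor, kinase and adaptor genes 17 had a probe set and 14 were above the floor. Of these, 7 were higher and 7 lower in DBA/1, beside 60.6% and 39.4% of all genes. Their median of -0.00 took either sign over the alternatives. None was at 2-fold, beside 5.74% of all genes. Jak3, the kinase of the common gamma chain, read 299.6 in DBA/1 and 215 in C57BL/6, a log2 ratio of 0.48. Parp14, a cofactor of Stat6, read 262 in DBA/1 and 363 in C57BL/6, a log2 ratio of -0.47. The adaptor Shc1 lay at -0.61 and the regulatory subunit Pik3r1 of phosphoinositide 3-kinase at -0.59. These 4 ratios are the largest of the list by size, so passing the probe error of 0.31 does not set them apart. The 25th and 75th percentiles of all genes were -0.15 and 0.36. Jak2, named after its value was seen, lay at 0.42. The other probe set of Shc1 lay at -0.65 and those of Pik3r1 at -0.32 and -0.27, all lower in DBA/1.

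Inhibitors of the pathway were represented by all 16 listed genes, of which 15 were above the floor. Of these, 10 were higher and 5 lower in DBA/1, beside 60.6% and 39.4% of all genes, and none by 2-fold, beside 5.74%. Their median of 0.12 lay near the 0.10 of all genes and fell to -0.003 in the lowest alternative. Cish, a cytokine-induced SH2 protein that dampens STAT5 signalling, read 118 in DBA/1 and 198 in C57BL/6, a log2 ratio of -0.75. Socs3, an inhibitor of cytokine receptors, was higher in DBA/1 with all 3 probe sets (0.47, 0.61 and 0.33). Bcl6, a repressor that competes for Stat6 sites, lay at 0.44 and the ubiquitin ligase Stub1 at 0.29. Socs1, the inhibitor induced by IL-4 itself, was near the floor at 42.1 in DBA/1 and 44.1 in C57BL/6, and was named after its value was seen.

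Of the list of Th2 transcription factors and cofactors, which includes Gata3 itself, 18 of 23 measurable genes were lower in DBA/1, beside 39.4% of all 6936 genes. Also lower in DBA/1 were 9 of 13 CD4 T cell identity genes, 7 of 9 Th2-associated receptors and 8 of 11 opposing genes. Lower genes numbered 6 of 9 on the Th1 list, 7 of 14 on the receptor and kinase list and 9 of 18 on the NFAT list. They numbered 5 of 15 among the inhibitors, 5 of 13 among the Stat6 targets and 1 of 4 at the cytokine locus. Of the 28 genes on the Th2 factor list 26 had a probe set and 23 were above the floor. None was at 2-fold, beside 5.74% of all genes. The median log2 ratio of this list was -0.27 and stayed between -0.36 and -0.20 over the 10 alternatives. Not every member is a factor that promotes Th2 genes: Riox2 (also called Mina), the member with the largest ratio, is known in mice as a repressor of Il4. Riox2 read 148 in DBA/1 and 292 in C57BL/6, a log2 ratio of -0.98 (1.97-fold lower in DBA/1). Its 2 further probe sets with a signal above the floor gave -0.86 and -0.63, the last a bound because its DBA/1 signal was under the floor, so all 3 were lower in DBA/1. Irf4, which cooperates with NFAT at the Il4 promoter, read 161 in DBA/1 and 88.5 in C57BL/6, a log2 ratio of 0.86. Gfi1, a repressor induced by Stat6 that sustains Th2 cell growth, read 55.9 in DBA/1 and 96.1 in C57BL/6, a log2 ratio of -0.78. Ecm1, a secreted protein on the same list that lets Th2 cells leave lymph nodes, lay at -0.69. B cells and plasma cells also express Irf4, and B cell markers were higher in DBA/1 beside it, with a median of 1.09; their part in its value was not tested. Maf, an activator of Il4, was under the floor on both arrays with its only probe set, and was named after its value was seen.

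Genes listed as opposing the Th2 programme numbered 14, of which 13 had a probe set and 11 were above the floor. Of these, 8 were lower and 3 higher in DBA/1, beside 39.4% and 60.6% of all genes. Their median of -0.27 stayed below 0 in every alternative. Besides Tbx21 at -0.98, Lef1, a factor of naive T cells, lay at -0.53. Sox4, at -0.44, is counted here and on the Th2 factor list, and was named after its value was seen. Spi1 (PU.1) restrains Gata3 in T cells and is abundant in myeloid and B cells. It read 387 in DBA/1 and 138 in C57BL/6, a log2 ratio of 1.49. This gene was the only member at 2-fold, beside 5.74% of all genes. Beside it, all 12 monocyte and macrophage markers were higher in DBA/1, with summed signals of 6909 in DBA/1 and 3068 in C57BL/6; their part in the Spi1 value was not tested. Runx1, a repressor of Gata3, lay at -0.74 in the probe set used, but its 5 probe sets ranged from -0.77 to 0.65. Both ends of that range are bounds, with the signal of 1 strain under the floor.

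Among target genes of Stat6, those with the largest ratios are known from B cells, macrophages and other antigen-presenting cells. Of 21 listed genes 20 had a probe set and 13 were above the floor. Of these, 8 were higher and 5 lower in DBA/1, beside 60.6% and 39.4% of all genes. Their median was 0.21, and 2 were at least 2-fold higher, beside 3.84% of all genes. The count was 1 under quantile normalization, lowess, the floor at percentile 60 and log2(signal + 32). Chil3, a chitinase-like protein of macrophages and granulocytes, read 972 in DBA/1 and 446 in C57BL/6, a log2 ratio of 1.12. Fcer2a (CD23), the IgE receptor of B cells, read 82.9 in DBA/1 and 29.1, under the floor, in C57BL/6. It was thus at least 2.18-fold higher in DBA/1. With the floor at percentile 60 it was at least 1.15-fold higher. It was 1.47-fold higher with the mean over its probe sets and 1.88-fold with log2(signal + 32). Mrc1, the macrophage mannose receptor, lay at 0.98 and Cd86, a co-stimulatory ligand of antigen-presenting cells, at 0.92. Of targets known from T cells, Gata3 lay at -0.20, Il4ra at 0.13, Gfi1 at -0.78, Cish at -0.75 and Nfil3 at 0.49 or more, with its C57BL/6 signal under the floor, so they went in both directions; these were named after their values were seen. Beside Fcer2a and Cd86, the 10 B cell markers with a probe set, other than Fcer2a, summed to 1716 in DBA/1 and 943 in C57BL/6. Among these, Cd72 was lower in DBA/1. The B cell factors Pax5 and Ebf1 were under the floor on both arrays, and were named after their values were seen. Beside Chil3, neutrophil markers summed to 34867 in DBA/1 and 10730.5 in C57BL/6. Beside Chil3 and Mrc1, monocyte and macrophage markers summed to 6909 in DBA/1 and 3068 in C57BL/6. The part of these cells in the Stat6 target values was not tested, and in such bulk RNA fewer cells of a type and less RNA per cell cannot be told apart.

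NFAT factors and their calcineurin pathway were evenly divided. Of 31 listed genes 23 had a probe set and 18 were above the floor. Of these, 9 were higher and 9 lower in DBA/1, beside 60.6% and 39.4% of all genes, with a median of 0.00. Nfatc3, another NFAT factor of T cells, read 478 in DBA/1 and 448 in C57BL/6, a log2 ratio of 0.09, and its other probe set lay at -0.31. All 4 probe sets of Nfatc2 were under the floor. Both were named after their values were seen. Rcan3, a binding partner of calcineurin, read 18.8, under the floor, in DBA/1 and 95.2 in C57BL/6. It was thus at least 2.54-fold lower in DBA/1 and the only member at 2-fold, beside 5.74% of all genes. With the floor at percentile 60 it was at least 1.29-fold lower and with the mean over its probe sets 1.60-fold lower, so no member was then at 2-fold. Rcan1, the calcineurin regulator that NFAT induces, lay at 0.63, the calcineurin subunit Ppp3r1 at 0.39 and the calcium sensor Stim1 at -0.44. Their other probe sets lay at 0.11 for Rcan1, 0.53 for Ppp3r1 and -0.09 for Stim1. Those of Rcan1 and Stim1 are bounds, with the signal of 1 strain under the floor.

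Surface receptors associated with Th2 cells were mostly at equality or under the floor. Of 17 listed genes 16 had a probe set and 9 were above the floor. Of these, 7 were lower and 2 higher in DBA/1, beside 39.4% and 60.6% of all genes. None was at 2-fold, beside 5.74% of all genes, and the median was -0.13. Icos, a co-stimulatory receptor of activated T cells, read 392 in DBA/1 and 231 in C57BL/6, a log2 ratio of 0.77, with its other probe set at 1.05. Notch2 lay at 0.47 and Notch1 at -0.38; both are receptors that promote Gata3 transcription. Il17rb, the receptor of IL-25, was at least 1.32-fold lower in DBA/1, where its signal was under the floor. The Th2 chemokine receptors Ccr3, Ccr4 and Ccr8 and the prostaglandin receptor Ptgdr2 were under the floor in both strains and were named after their values were seen.

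**Figure D4:**
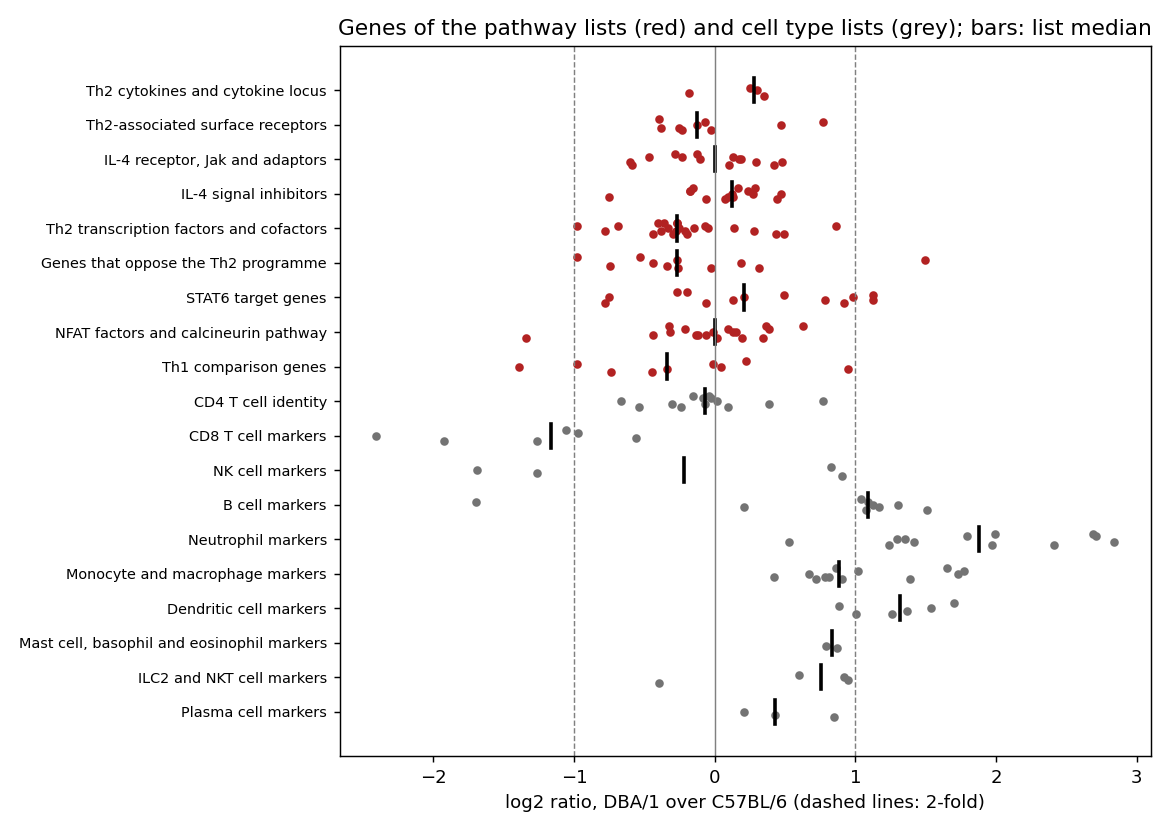
Log2 ratio of DBA/1 over C57BL/6 for each gene above the floor in the pathway lists (red) and cell type lists (grey), with the list median as a black bar and 2-fold as dashed lines. Pathway medians lie between -0.34 and 0.28, and neutrophil, dendritic cell and B cell markers have medians of 1.88, 1.31 and 1.09.

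The label CD4+ T was checked against its markers. Cd4 signals were 913 in DBA/1 and 857 in C57BL/6 and those of Cd3e 747 in DBA/1 and 791 in C57BL/6. The 13 measured T cell identity genes had a median log2 ratio of -0.07, led by Icos and Zap70 (-0.67). Relative to that median, Gata3 lay at -0.13, Il4 at 0.42, Il4ra at 0.20, Stat6 at 0.24 and Nfatc1 at 0.005. Markers of other cells were present and unequal. Medians were 1.88 for neutrophils (all 12 higher in DBA/1, led by Cd177 and Lcn2) and 1.31 for dendritic cells (6 genes, Fscn1 and Cst3). For B cells (9 genes) the median was 1.09. Blk lay at 1.51 or more, with its C57BL/6 signal under the floor, and Cd72 at -1.70. Monocytes and macrophages (Hmox1 and Fcgr3) had a median of 0.88 and plasma cells (3 genes, Jchain and Prdm1) one of 0.43. The NK cell median was -0.22, and 0.83 with the floor at percentile 25. Klrd1 (-1.69) and Il2rb (-1.27, and -0.46 with its other probe set) were lower in DBA/1. Gzmb (0.91) and Tyrobp (0.83), named after their values were seen, were higher in DBA/1. Among CD8 T cell markers Cd8b1 was at least 5.30-fold and Nkg7 3.80-fold lower in DBA/1. Cells other than T cells also make IL-4, IL-5 or IL-13. Of these, mast cell, basophil and eosinophil markers were under the floor on both arrays for 12 of 14 genes. Those 12 read at most 24.8 in DBA/1 and 19.2 in C57BL/6. Hdc (at least 1.82-fold) and Kit (1.73-fold) were higher in DBA/1. Their other probe sets gave smaller log2 ratios, 0.32 for Hdc, a bound, and 0.14 for Kit. The 4 usable markers of innate type 2 lymphoid and NKT cells had a median of 0.76, led by Il18r1 and Klrg1 (0.92), with Il17rb lower in DBA/1 (-0.40, a bound). Their part in the Il4 signal was not tested.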

How the data were processed

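The table deposited by the authors holds 1 intensity per probe set and array, on a linear scale, for 22690 probe sets, of which 64 are controls. The submitters' processing notes name MAS5, without version or scaling target, and no genome build was given in the sources used here. Total RNA (3 µg) was labelled as biotinylated cRNA, per the labels' protocols. Probe sets were named through the platform annotation, and only those with 1 gene symbol were used. For a gene with several probe sets, the one of highest mean log2 signal stood for it. Signals were used as deposited, with the array's median as the floor, in Python 3.11.15; the calculation was tested on simulated data. The number of arrays, 1 per strain, limits the precision, and no test was possible. The members and gene lists were chosen with earlier results of these data known. Named genes are all Th2 genes, the 4 with the largest absolute log2 ratio in each pathway list, Cd3e and Cd4, and the 2 largest of each other-cell list; others are marked. The pairs of Th2 and Th1 genes were chosen after the values were seen. Alternatives changed scaling, floor, pseudocount and probe set choice, and 1, relative to T cell genes, was added after the data were seen. Promoter sequences are from RefSeq. 6 of the 7 genes were searched there, and Nfatc1 is named only.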

Additional observations from a re-analysis of the deposited data

How the results depend on the processing

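The log2 ratios of Gata3, Il4, Il4ra, Stat6 and Nfatc1, their median (0.03 to 0.20) and their count at 2-fold (0 in all 10 alternatives) moved by less than the probe error of 0.31; Nfatc1 reached 0.005 relative to T cell genes, against -0.06. As deposited, the median log2 ratio of probe sets over the floor in both strains was 0.085, and median centring removed it. Of 180 recomputed list medians 6 moved by more than the probe error. With the floor at percentile 25 the cytokine locus median was -0.073, the Th1 median -0.015 (also with the floor at percentile 60) and the NK cell median 0.83; raising the floor to percentile 60 gave 0.59 for B cells, and the neutrophil median 1.49 with log2(signal + 32). Of 90 recomputed counts at 2-fold 25 moved by over 1.5 times, all of them counts of 3 or fewer. With the floor at percentile 25, the count was 2 for the cytokine locus, 1 for surface receptors, 1 for inhibitors, 1 for Th2 transcription factors, 3 for opposing genes, 2 for the NFAT pathway and 2 for Th1 genes. Median centring, quantile normalization and lowess each gave 1 for Th2 transcription factors, 2 for opposing genes and 2 for Th1 genes, and without a floor the last 2 lists also had 2 each. Relative to T cell genes the Th1 count was 2. The count of Stat6 targets was 1 under quantile normalization, lowess, the floor at percentile 60 and log2(signal + 32). The NFAT count was 0 under the mean over probe sets and with the floor at percentile 60. Which genes counted as measurable changed with the floor: 10282 genes at percentile 25 and 5872 at percentile 60, against 6936. Tbx21 and Riox2, at -0.98 as deposited, both lay at -1.06 after median centring, past 2-fold. No cause beyond these settings was tested. The share of all genes at 2-fold ranged from 3.55% with log2(signal + 32) to 10.5% with the floor at percentile 25. No paired analysis was possible because each strain has 1 array.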

Other observations

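Probe sets of 1 gene disagreed for Ets1, a factor of the Th2 list that cooperates with NFAT and AP-1 proteins in T cells, and the disagreement was larger than for any Th2 gene; it was singled out after its values were seen. Probe sets 1452163_at and 1426725_s_at read 1792 and 1269 in DBA/1, against 2298 and 1526 in C57BL/6, with log2 ratios of -0.36 and -0.27. Probe sets 1422027_a_at and 1422028_a_at read 670.0 and 605 in DBA/1, against 359.5 and 244 in C57BL/6, with log2 ratios of 0.90 and 1.31. The cause was not tested. Cd247, the zeta chain of the T cell receptor complex, lay at -0.24 in the probe set used and at -1.13 in another, and was also named after its values were seen. Notch1 lay at -0.38 and, with its other probe set, at -0.99.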
